A study of Mus musculus with 217 samples.

Results

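Gene expression late in the dark phase was compared with expression early in it in the dorsolateral striatum (DLS), the sensorimotor part of the striatum. All libraries of the DLS table labelled ZT22 (10 h after lights off) were set against all those labelled ZT14 (2 h after lights off), with sex as a covariate. This took 24 libraries, 12 at each time with 6 from females and 6 from males, of 70 DLS libraries and 217 in the whole series. All 11394 genes of the table were tested. Every group was C57BL/6J mice of about 10 weeks with no treatment or engineered allele named in the labels, kept in 12 h of light and 12 h of dark, so the labels separate the groups by time of day and sex. Each library was total RNA from 1 mm punches of both hemispheres of 1 animal.

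Mice are nocturnal, and the dark phase is their active phase. In most cells the transcription factors CLOCK (or NPAS2) and BMAL1 (gene Arntl) bind E-box sequences and drive Per, Cry, Nr1d and Ciart genes, whose products in turn repress that drive or, for the Nr1d receptors, repress Arntl through ROR elements. The striatum also receives daily signals from outside this loop, among them body temperature, circulating glucocorticoid and the animal's own movement and feeding, each of which has well-known responsive genes. Most DLS neurons are GABAergic spiny projection neurons, which divide into direct-pathway cells with the dopamine receptor Drd1 and indirect-pathway cells with Drd2, Adora2a and Penk.

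Levels below are log2 of the normalised count plus 1, and a difference is ZT22 minus ZT14 on that log2 scale with its standard error (SE). A gene was called when its limma p, adjusted over all 11394 genes by the Benjamini-Hochberg method, was under 0.05. Between 39.9 and 56.8 M reads were recovered per ZT14 library and between 34.8 and 53.8 M per ZT22 library, of which 15.3 to 28.3 M and 18.6 to 35.6 M lay outside the 3 most abundant genes. The share of normalised counts taken by mitochondrial ribosomal RNA was 43.97% ± 5.35 (SD, n = 12) at ZT14 and 39.3% ± 7.19 (SD, n = 12) at ZT22 (difference -4.70 percentage points, two-sided permutation test, p = 0.0835). Female libraries numbered 2, 3 and 4 at ZT22 stood apart with shares under 30%, against 37.66% to 50.05% in the other 9 at ZT22 and 35.62% to 53.03% at ZT14. In females the share fell by 9.59 points (exact permutation test, two-sided, p = 0.0368), and in males the difference was 0.184 points (exact permutation test, two-sided, p = 0.922). Without the 3 libraries the difference over both sexes was -1.21 points (exact permutation test, two-sided, p = 0.575). Results that rest on these 3 libraries are therefore given with and without them. The 10 striatal neuron markers were all measured and their summed level was 17.55 to 17.87 at ZT14 and 17.73 to 17.96 at ZT22. Of these 10 genes 5 were called higher late in the dark (Adora2a, Pde10a, Rgs9, Bcl11b and Penk) and Drd1 lower. Their median difference was 0.165, and 8.05% of all genes were called. Without the 3 libraries 2 of the 10 were called higher and none lower. Astrocyte markers summed to 16.89 to 17.36 and 17.02 to 17.37, and none of the 13 was called. Cortical neuron markers, of which 5 of 7 were measured, spread from 10.42 to 12.99 at ZT14 and from 10.63 to 12.68 at ZT22, and none was called. Punches are bulk tissue, in which fewer cells of a type and less RNA per cell cannot be told apart.

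Late in the dark phase 917 genes (8.05%) differed from the early dark phase, 455 of them higher (3.99%) and 462 lower (4.05%). The decreases included the largest changes: 10 genes were more than 2-fold lower and 2 more than 2-fold higher, and past 1.5-fold there were 34 and 33. The median fold among called genes was 1.25 for increases and 1.21 for decreases, and the median difference over all genes was 0.00027 (2891 genes had an unadjusted p under 0.05). For 26 genes (0.228% of all) the 12 early and 12 late libraries did not overlap, and 20 of these were lower late in the dark. Without the 3 libraries of low ribosomal RNA share 559 genes were called (4.91%), 229 higher (2.01%) and 330 lower (2.9%), of which 182 and 246 were among the 455 and 462. Scaling every library to an equal sum over all listed genes, which carries the ribosomal RNA share into every gene, moved the median difference of all genes to 0.158 and made 1083 of 1138 calls increases. The list medians and counts given below under equal-sum scaling carry that shift. Counts of called list members given below stand beside 8.05% of all genes called, or 4.91% without the 3 libraries.

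**Figure D1:**
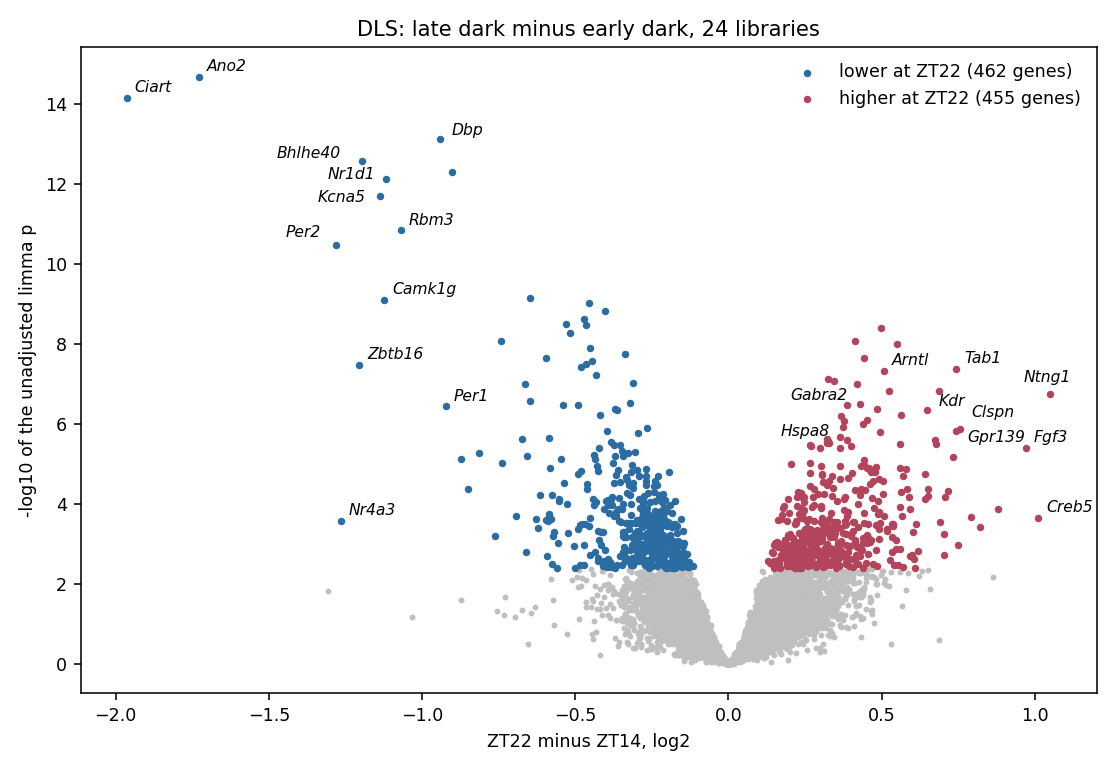
Change from ZT14 to ZT22 (x axis, log2) against -log10 of the unadjusted limma p (y axis) for the 11394 genes of the DLS table, 12 libraries at each time. Coloured points are the 455 genes called higher and the 462 called lower at an adjusted p under 0.05. The points farthest to the left are Ciart at -1.96 and Ano2 at -1.73, and the farthest coloured points to the right are Ntng1 at 1.05 and Creb5 at 1.01.

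Most repressor genes of the clock loop fell across the dark phase, and its activator gene Arntl rose. Of 13 core clock genes 7 fell (Ciart, Per2, Nr1d1, Per1, Nr1d2, Per3 and Cry2) and 2 rose (Arntl and Npas2), with a median difference of -0.31. Under equal-sum scaling 6 fell and 4 rose, with a median of -0.15. Without the 3 libraries the same count of 7 fell and Arntl alone rose, since Npas2 (0.19 ± 0.05, adjusted p = 0.0257) then had an adjusted p of 0.073. Ciart, a repressor of CLOCK and BMAL1 on chr3:95878503-95882251, had ZT14 levels of 8.64 to 9.41 (median 9.04) and ZT22 levels of 6.33 to 7.51 (median 7.13). Every ZT22 library lay below every ZT14 library by more than 1 log2 unit, and the fitted difference was -1.96 ± 0.13 (3.90-fold lower, limma adjusted p = 3.89e-11). Per2, a period repressor, went from 9.93 to 11.17 (median 10.69) to 8.60 to 9.85 (median 9.34), again without overlap, a difference of -1.28 ± 0.12 (adjusted p = 4.11e-08). Nr1d1, which encodes the heme receptor REV-ERB alpha, fell by 1.12 ± 0.09 on the log2 scale (10.19 to 11.04 at ZT14, 9.44 to 10.05 at ZT22, adjusted p = 1.41e-09), and its paralog Nr1d2 by 0.74 ± 0.09, both without overlap. Per1 fell by 0.92 ± 0.14 with overlapping groups (10.02 to 11.51 at ZT22 against 11.21 to 11.81), Per3 by 0.44 ± 0.06 without overlap and Cry2 by 0.31 ± 0.04. Arntl ranged from 9.68 to 10.26 (median 9.94) at ZT14 and from 10.19 to 10.64 (median 10.51) at ZT22, so the groups overlapped between 10.19 and 10.26, and it rose by 0.51 ± 0.07 (adjusted p = 1.7e-05). The other 4 members gave no call: Clock at 0.14 ± 0.06, Rorb at 0.17 ± 0.07, Cry1 at -0.08 ± 0.08 and Rora at 0.01 ± 0.06.

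Promoter windows of 3 of these genes are shown, chosen because they hold the 2 motifs of the loop. Each window is 250 bases before to 50 bases after an annotated start (RefSeq, build GRCm38.p6), written 5′ to 3′ on the gene's own strand, with E-boxes (CACGTG) or the ROR element (TAGGTCA) in capitals. The Ciart window (chr3:95882179-95882478, minus strand) holds 3 E-boxes, at positions 135, 193 and 207 from its 5′ end. A Per1 window (chr11:69098699-69098998, plus strand) holds 1 at 85, and an Arntl window (chr7:113207261-113207560, plus strand) a ROR element at 281. The other window given for Per1 and the other for Arntl, not shown, hold neither motif.
Ciart: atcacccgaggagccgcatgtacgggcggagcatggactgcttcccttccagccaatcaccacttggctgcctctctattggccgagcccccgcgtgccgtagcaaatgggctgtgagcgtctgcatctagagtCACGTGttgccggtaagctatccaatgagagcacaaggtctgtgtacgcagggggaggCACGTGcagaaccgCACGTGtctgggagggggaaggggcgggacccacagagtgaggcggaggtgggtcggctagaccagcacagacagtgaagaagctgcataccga
Per1: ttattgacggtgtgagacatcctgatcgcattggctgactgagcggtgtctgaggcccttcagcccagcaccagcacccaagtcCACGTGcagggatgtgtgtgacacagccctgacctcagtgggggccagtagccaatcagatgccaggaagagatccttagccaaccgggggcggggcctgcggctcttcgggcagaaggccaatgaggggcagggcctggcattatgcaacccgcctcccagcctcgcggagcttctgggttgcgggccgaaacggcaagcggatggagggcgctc
Arntl: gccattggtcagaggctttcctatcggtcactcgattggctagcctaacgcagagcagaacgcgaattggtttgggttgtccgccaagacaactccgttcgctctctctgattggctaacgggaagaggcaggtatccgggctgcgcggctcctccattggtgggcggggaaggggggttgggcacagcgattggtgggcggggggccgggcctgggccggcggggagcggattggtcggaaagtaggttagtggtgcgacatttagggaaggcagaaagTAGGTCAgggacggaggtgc

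Windows were given for 8685 of the 11394 genes, and both strands were searched. An E-box stood in 12.2% of all these genes, in 15.6% of the 352 called lower with a window and in 8.61% of the 360 called higher. The ROR element stood in 2.01% of all, 3.89% of the genes called higher and 0.568% of those called lower. Among core clock genes 3 of 12 held an E-box (Ciart, Cry1 and Per1) and 1 a ROR element (Arntl). A CRE (TGACGTCA) stood in 3.89% of all genes and in 3.89% and 3.69% of those called higher and lower. These are counts of letters in a short window and say nothing of binding.

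Most clock output genes, transcription factors and regulators driven by the loop, also fell. Of 9 clock output genes 8 were measured and 6 fell (Dbp, Bhlhe40, Bhlhe41, Cipc, Tef and Hlf), none rose, and the median was -0.33. The same counts were found without the 3 libraries, and under equal-sum scaling 3 fell, none rose and the median was -0.18. Bhlhe40, a repressor that competes for E-boxes, fell by 1.19 ± 0.09 (10.18 to 11.04 at ZT14, 9.10 to 9.88 at ZT22, adjusted p = 7.65e-10). Dbp, which encodes a D-box activator, had levels of 11.76 to 12.17 (median 12.07) early and 10.61 to 11.34 (median 11.15) late, a difference of -0.94 ± 0.07 (adjusted p = 2.79e-10). Neither gene's groups overlapped. The 2 other members, Usp2 (-0.14 ± 0.07) and Wee1 (-0.10 ± 0.07), were not called.

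**Figure D2:**
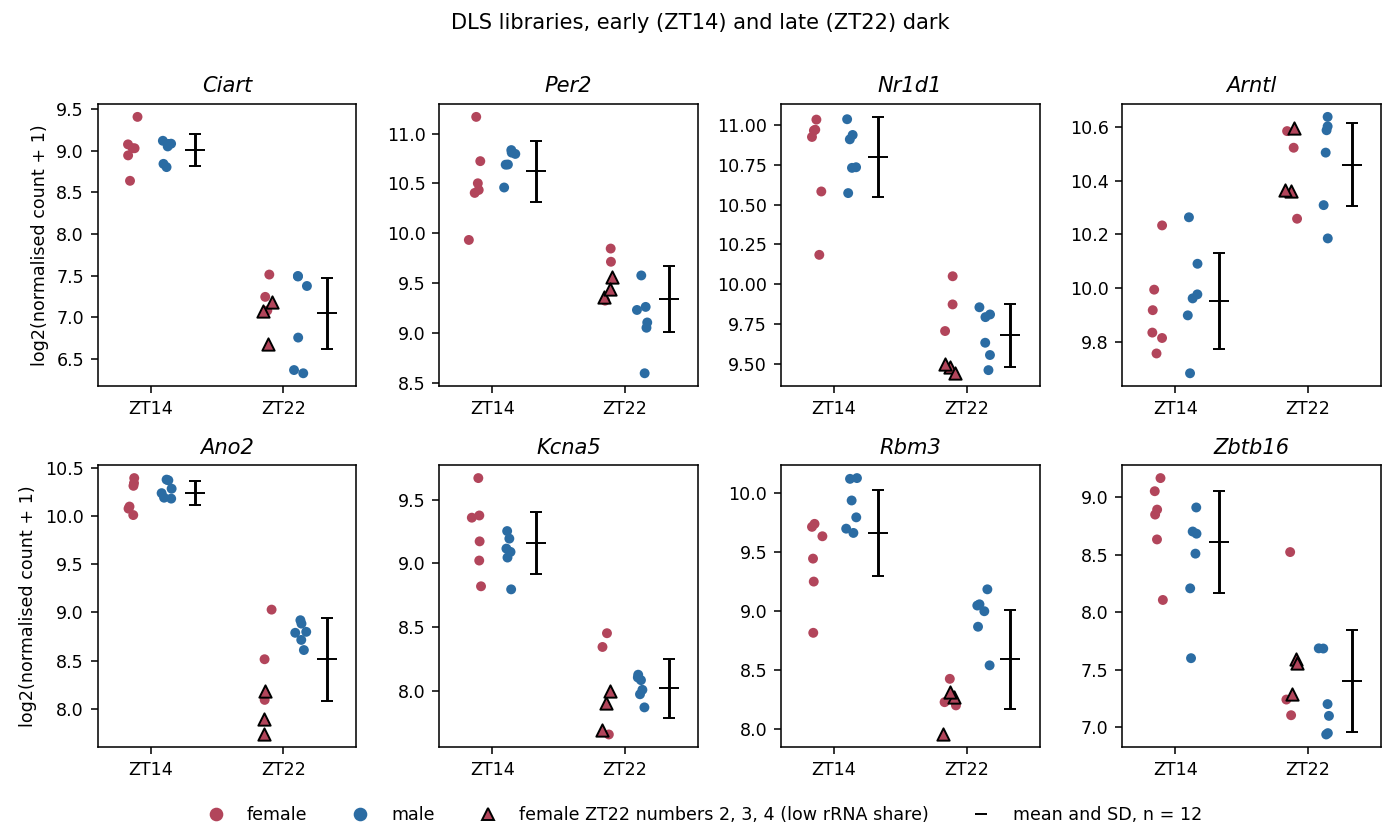
Level of 8 genes (y axis, log2 of the normalised count plus 1) in each DLS library at ZT14 and ZT22. Circles are libraries of females (red) and males (blue), outlined triangles the 3 female ZT22 libraries of low ribosomal RNA share, and black bars the mean and SD of 12 libraries. Arntl is the gene shown that rose. For Ciart, Per2, Nr1d1, Ano2 and Kcna5 no ZT22 library reaches a ZT14 library.

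A pair of neighbouring ion channel genes was among the 10 largest decreases. Ano2, a calcium-activated chloride channel gene on chr6:125690419-126040126, had levels of 10.01 to 10.40 (median 10.26) at ZT14 and 7.73 to 9.03 (median 8.66) at ZT22. The groups did not overlap, and the difference of -1.73 ± 0.11 (3.31-fold lower, adjusted p = 2.32e-11) was -1.56 without the 3 libraries. Kcna5, which encodes the voltage-gated potassium channel Kv1.5 and lies 492 kb away, ran from 8.80 to 9.67 (median 9.14) early and from 7.66 to 8.45 (median 8.01) late, a difference of -1.14 ± 0.09 (adjusted p = 3.21e-09). No gene of the table lay between them. Of the 33 other genes of the table within 1 Mb of this stretch, a region examined after these values were seen, 1 was called: Ccnd2, which encodes a cyclin, at -0.60 (adjusted p = 1.04e-05). Kcna1, the measured gene next to Kcna5, was at -0.05 (adjusted p = 0.651). Across the 35 measured potassium and chloride channel genes 3 fell (Ano2, Kcna5 and Kcnh3), 2 rose (Kcnd3 and Kcna2) and the median was 0.06; without the 3 libraries the same number fell and none rose.

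Both cold-inducible RNA-binding protein genes fell. Rbm3 ranged from 8.82 to 10.12 (median 9.70) at ZT14 and from 7.96 to 9.18 (median 8.48) at ZT22, so the groups overlapped, and the difference was -1.07 ± 0.10 (adjusted p = 2.02e-08). Cirbp fell by 0.65 ± 0.10 (adjusted p = 7.43e-05), from a median of 8.97 to 8.38. Their differences were -1.02 and -0.69 without the 3 libraries. Of 22 cytosolic heat shock chaperones measured, 7 rose, 2 fell, 13 were not called and the median was 0.12. The counts were again 7 and 2 without the 3 libraries. In the animals numbered up to 29 alone 1 rose and 3 fell, with a median of 0.02. Fewer samples entered there, and the 3 libraries were among its 6 at ZT22. In the animals numbered from 31 alone 6 rose and 2 fell, with a median of 0.15. Hspa8, the constitutive HSP70, rose by 0.39 ± 0.07 (15.26 to 15.51 at ZT14, 15.52 to 16.21 at ZT22, no overlap, adjusted p = 0.00041). Ahsa1, an activator of HSP90, rose by 0.44 ± 0.06 without overlap (adjusted p = 1.04e-05), and Hsph1, the exchange factor HSP110, by 0.36 ± 0.07 (adjusted p = 0.0012). Stip1, Fkbp4, Dnaja4 and Hspa4, cochaperones and an exchange factor, rose by 0.24 to 0.32. The 2 that fell were the HSP40 cochaperones Dnajb1 (-0.45 ± 0.06) and Dnajb4 (-0.43 ± 0.06). No chaperonin (10 measured) was called.

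Heat shock factors bind inverted repeats of GAA. The core GAANNTTC stood in the windows of 7 of 17 heat shock chaperone genes with a window (41.2%; Bag3, Chordc1, Dnaja1, Dnaja4, Fkbp4, Hspb1 and Hsph1), against 6.79% of all genes, 8.33% of the genes called higher and 7.1% of those called lower. Of these 7 genes Hsph1, Fkbp4 and Dnaja4 rose, while Bag3, Chordc1, Dnaja1 and Hspb1 were not called. Ahsa1, Hspa8, Stip1 and Hspa4, which also rose, were not among the 7. The windows of Hsph1 (chr5:149636266-149636565, minus strand) and Fkbp4 (chr6:128438607-128438906, minus strand) are shown with the core in capitals, at position 271 and 100, and Hsph1 also with an E-box at 232.
Hsph1: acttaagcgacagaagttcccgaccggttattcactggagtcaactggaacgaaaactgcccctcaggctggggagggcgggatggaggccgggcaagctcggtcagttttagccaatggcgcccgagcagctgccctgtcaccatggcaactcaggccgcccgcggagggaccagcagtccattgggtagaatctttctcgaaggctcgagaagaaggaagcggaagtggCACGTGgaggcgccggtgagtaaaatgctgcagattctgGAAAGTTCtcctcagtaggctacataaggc
Fkbp4: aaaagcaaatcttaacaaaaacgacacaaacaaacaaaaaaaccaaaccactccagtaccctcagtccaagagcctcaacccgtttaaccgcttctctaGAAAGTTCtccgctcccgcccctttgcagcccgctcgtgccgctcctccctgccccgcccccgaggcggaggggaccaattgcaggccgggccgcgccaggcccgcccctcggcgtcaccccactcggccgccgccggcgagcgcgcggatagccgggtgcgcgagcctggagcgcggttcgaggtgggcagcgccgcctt

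Several glucocorticoid-responsive genes fell late in the dark. Of 17 measured 7 fell (Zbtb16, Per1, Sgk1, Tsc22d3, Nfkbia, Bcl6 and Klf9), none rose, 10 were not called and the median was -0.34. The counts were again 7 and 0 without the 3 libraries, with a median of -0.26, and 5 and 0 under equal-sum scaling, with a median of -0.18. Per1 is also a core clock gene. Zbtb16, a zinc-finger transcription factor gene, ran from 7.60 to 9.17 (median 8.69) at ZT14 and from 6.94 to 8.52 (median 7.26) at ZT22, a difference of -1.21 ± 0.16 (adjusted p = 1.36e-05). Sgk1, a kinase gene, fell by 0.81 ± 0.14 and Tsc22d3, which encodes GILZ, by 0.66 ± 0.09. For these last 2 the female decrease was larger, at -1.32 and -1.01 against -0.31 and -0.32 in males, but the test of the sex difference gave adjusted p of 0.093 and 0.056. Fkbp5, a receptor cochaperone gene singled out here after its values were seen, was at -0.12 (adjusted p = 0.276). Of 12 Kruppel-like factor genes 4 fell (Klf5, Klf9, Klf2 and Klf6) and none rose, with a median of -0.14. Under equal-sum scaling 1 fell and 1 rose, with a median of 0.02. Klf6 (-0.28 ± 0.08, adjusted p = 0.030) had an adjusted p of 0.16 without the 3 libraries, where the count of decreases was again 4 and the median -0.16. Klf2 showed the largest of these decreases at -0.85 ± 0.17.

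**Figure D3:**
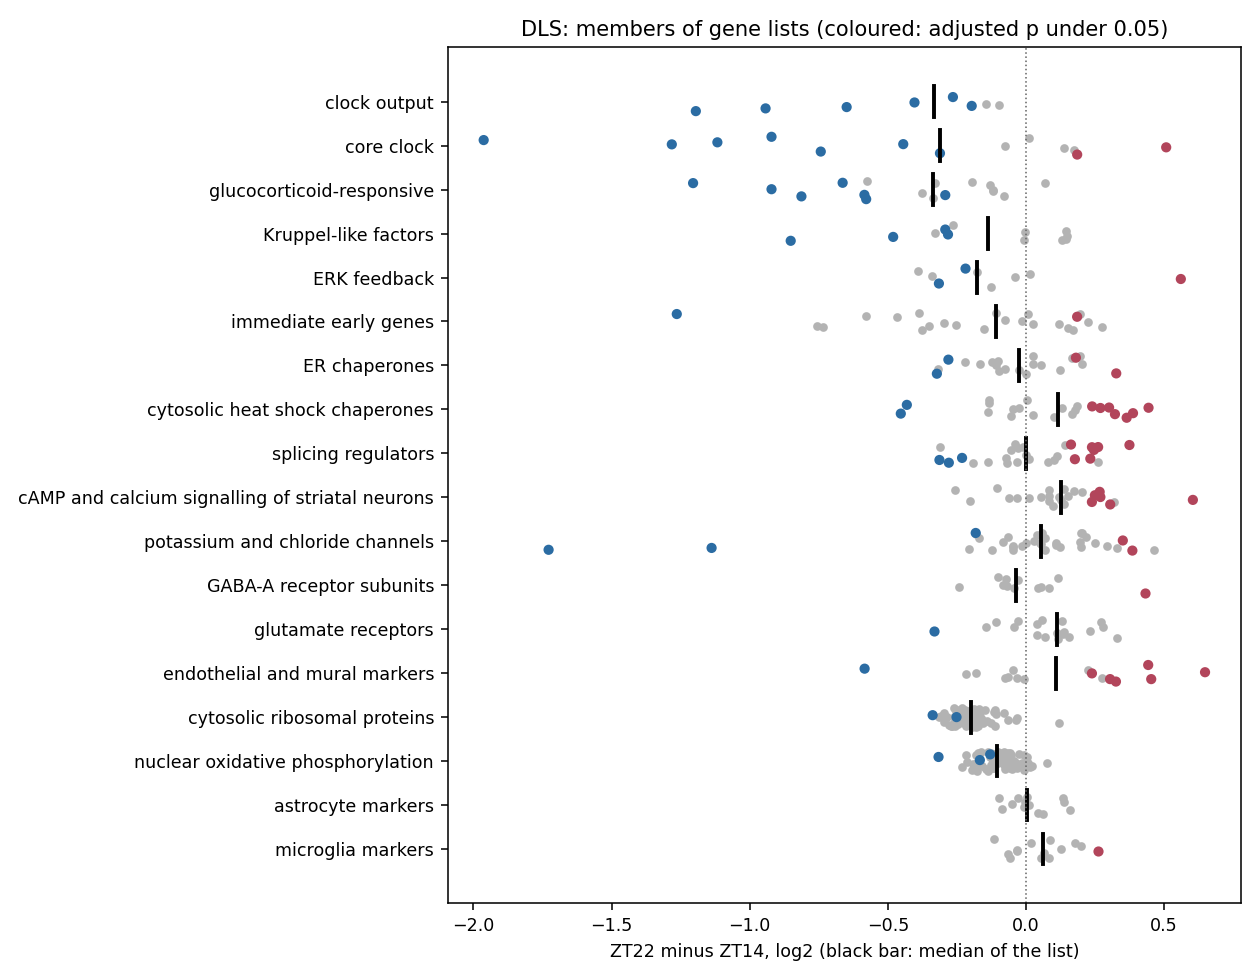
Change from ZT14 to ZT22 (x axis, log2) of each measured member of 18 gene lists (rows). Grey points were not called, blue points were called lower and red points higher, and the black bar is the list's median. Clock output and glucocorticoid-responsive lists hold blue calls and no red ones, heat shock chaperones hold 7 red and 2 blue, and the 80 cytosolic ribosomal protein genes lie as a narrow band around -0.20.

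Activity-induced transcription factor genes depended on the 3 libraries. With all 24 libraries 1 of 23 immediate early genes fell (Nr4a3) and 1 rose (Jund, 0.19 ± 0.05), and the median was -0.11, or 0.05 under equal-sum scaling. That called share was near the 8.05% of all genes. Without the 3 libraries 8 fell (Nr4a3, Egr2, Nr4a1, Egr4, Arc, Junb, Egr1 and Dusp1), Jund rose, and the median was -0.40. Nr4a3, a nuclear receptor gene, ran from 8.46 to 10.64 (median 9.67) at ZT14 and from 7.32 to 9.85 (median 7.94) at ZT22. Its difference was -1.26 ± 0.30 (adjusted p = 0.0095) with all libraries and -1.72 without the 3. Several further members were singled out after their values were seen. Arc, a postsynaptic regulator, lay at 11.7 to 12.7 at ZT14, at 13.04 to 13.42 in the 3 libraries and at 10.1 to 12.9 in the other 9 at ZT22. Egr1 lay at 12.4 to 13.4, 13.5 to 13.7 and 12.2 to 13.2 in the same order. In both genes the 3 libraries were above every other library of the comparison. Egr1 was at -0.35 ± 0.16 with all libraries (adjusted p = 0.161) and at -0.64 without the 3 (adjusted p = 0.000642), Arc at -0.25 ± 0.29 (0.615) and -0.77 (0.0354), and Fos at -0.11 ± 0.40 (0.891) and -0.72 (0.255). The 3 libraries are the ones of low ribosomal RNA share. With that share as a covariate over all 24 libraries, 3 of the 23 immediate early genes fell and none rose, with a median of -0.30. Why the levels in the 3 libraries were high was not tested. Of 9 genes of ERK feedback 2 fell (Spred2 and Dusp7) and 1 rose (Spred3), while without the 3 libraries 5 fell and 1 rose and under equal-sum scaling none fell and 1 rose.

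**Figure D4:**
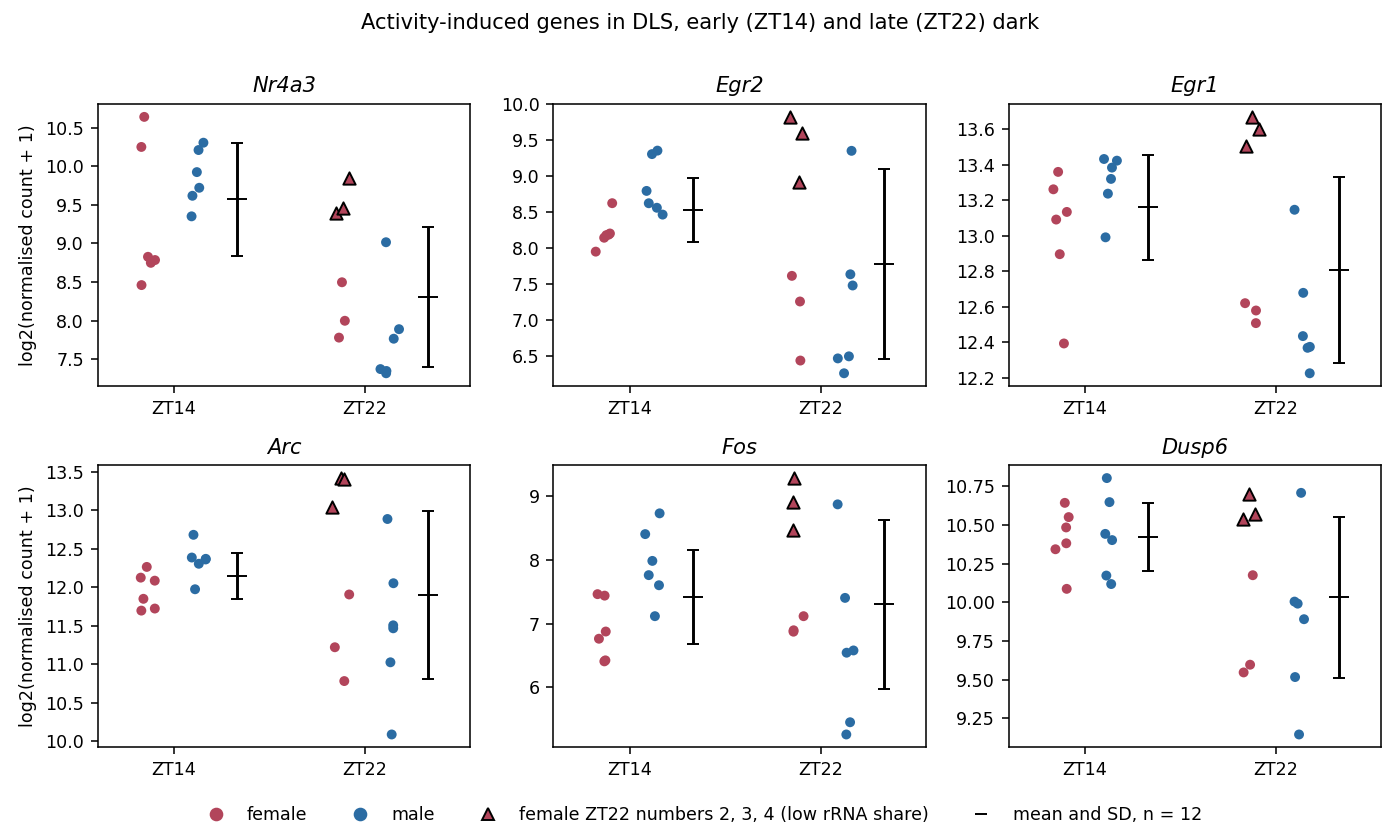
Level of 6 activity-induced genes (y axis, log2 of the normalised count plus 1) in each DLS library at ZT14 and ZT22, with females in red, males in blue, black bars for the mean and SD of 12 libraries, and outlined triangles for the 3 female ZT22 libraries of low ribosomal RNA share. For Egr1 and Arc the 3 triangles sit above all other libraries, at 13.5 to 13.7 and 13.04 to 13.42.

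The largest increases were spread over genes of unlike function, and several leaned on the 3 libraries. Ntng1, which encodes the synaptic adhesion protein netrin-G1, ran from 7.04 to 8.07 (median 7.58) at ZT14 and from 7.90 to 9.18 (median 8.59) at ZT22, a difference of 1.05 ± 0.15 (2.07-fold higher, adjusted p = 4.9e-05) that was 0.88 without the 3 libraries. Creb5, a transcription factor gene, rose by 1.01 ± 0.24 from a median of 5.94 to 6.93, and Fgf3, a growth factor gene, by 0.97 ± 0.17 from 6.21 to 7.20. Tab1, which encodes a partner of the kinase TAK1, rose by 0.74 ± 0.10 and Gpr139, an orphan receptor gene, by 0.74 ± 0.12, with 0.69 and 0.86 without the 3 libraries. Clspn, a replication checkpoint gene, rose by 0.75 ± 0.12 and Crocc, which encodes rootletin, by 0.79 ± 0.18, with 0.54 and 0.47 without the 3 libraries. Evpl (0.88 ± 0.20), Cbfa2t3 (0.82 ± 0.20) and Cmya5 (0.75 ± 0.20) were called with all libraries, but without the 3 their adjusted p were 0.053, 0.088 and 0.14. Among the 26 genes without overlap, the 6 that rose were Fkbp4, Cdk2ap1, Hspa8, Rnf144a, Ahsa1 and Kcns2. Kcns2, a modulatory potassium channel subunit gene named here for that reason, rose by 0.55.

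Genes of striatal neuron signalling changed by small amounts, and their lists did not share 1 direction of call. Of 25 genes of cAMP and calcium signalling 6 rose (Ptpn5, Rgs4, Atp2a3, Pde10a, Rgs9 and Gnal), none fell and the median was 0.13. Without the 3 libraries 2 rose and 1 fell, with a median of 0.06. With the ribosomal RNA share as a covariate 2 rose and none fell, also with a median of 0.06. Rgs4, a brake on G protein signalling, rose by 0.31 ± 0.06 (14.53 to 14.97 at ZT14, 14.87 to 15.25 at ZT22, adjusted p = 0.00164) and Ptpn5, the phosphatase STEP, by 0.27 ± 0.05. Of 7 measured indirect-pathway genes Adora2a (0.27 ± 0.05, adjusted p = 0.00109) and Penk (0.21 ± 0.06, adjusted p = 0.0419) rose, also without the 3 libraries, and none fell. Of 8 direct-pathway genes Drd1 alone was called, at -0.18 ± 0.06 (adjusted p = 0.0384), and its adjusted p was 0.25 without the 3 libraries; under equal-sum scaling 1 member of the list rose and none fell. Cnr1, the cannabinoid receptor gene, rose by 0.24 ± 0.07 with all libraries and by 0.29 without the 3. Among 12 GABA-A receptor subunit genes Gabra2 rose, from 9.88 to 10.58 (median 10.05) to 10.30 to 10.89 (median 10.53), a difference of 0.43 ± 0.06 (adjusted p = 8.13e-05), and no other was called; the list's median of -0.04 became 0.12 under equal-sum scaling. Of 20 glutamate receptor genes Grik5, a kainate receptor subunit gene, fell by 0.33 ± 0.07 and none rose, whereas under equal-sum scaling 4 rose and none fell. In the main fit the called share was near the 8.05% of all genes for GABA-A subunits and below it for glutamate receptors.

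Markers of blood vessel cells divided. Of 16 endothelial and mural markers 6 rose (Kdr, Pecam1, Cldn5, Cdh5, Tek and Pdgfrb), Slc2a1 fell and 9 were not called, and 8 of the 16 differences were negative. The counts were 5 and 1 without the 3 libraries. In the animals numbered up to 29 alone none was called, and in those from 31 alone 4 rose and 1 fell. Fewer samples entered in both, and the 3 libraries were among those up to 29. Kdr, a VEGF receptor gene, ran from 7.88 to 8.77 (median 8.39) at ZT14 and from 8.74 to 9.38 (median 9.08) at ZT22, a difference of 0.65 ± 0.10 (adjusted p = 9.98e-05). Pecam1 rose by 0.44 ± 0.08 and Tek by 0.30 ± 0.08. Slc2a1, which encodes GLUT1, fell by 0.58 ± 0.10 (adjusted p = 0.000387), and by 0.41 without the 3 libraries. The summed level of all 16 markers was 13.78 to 14.05 at ZT14 and 13.70 to 14.07 at ZT22. Cx3cr1 was the 1 of 14 microglia markers called, at 0.26 ± 0.06, a called share below the 8.05% of all genes. All 5 red blood cell markers were lower with none called (median -0.64, or -0.13 without the 3 libraries).

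Cytosolic ribosomal protein genes gave small negative values together. Of 80 measured, 79 had a negative difference, 2 were called (Rpl3 and Rpl37a), and the median was -0.20, against -0.05 without the 3 libraries and -0.04 under equal-sum scaling. Nuclear genes of oxidative phosphorylation had a median of -0.10 over 77 genes with 3 called lower. It was -0.01 without the 3 libraries and 0.05 under equal-sum scaling, which shifts all genes. Relative to the median of all genes it was -0.105 with and without that scaling. For the ribosomal protein genes this relative median was -0.201 in both. Such a scaling moves all genes of a library nearly alike, so this sameness was fixed in advance. For oxidative phosphorylation and ribosomal protein genes the relative medians were -0.0152 and -0.0545 without the 3 libraries. With the ribosomal RNA share as a covariate they were -0.0327 and -0.0631. With all libraries the called share of both lists was below the 8.05% of all genes, and without the 3 libraries no member of either was called. Splicing regulators divided: of 27 measured 7 rose (Hnrnph1, Hnrnpdl and Srsf5 among them), 3 fell (Tra2b, Srsf7 and Rbm5) and the median was 0.00, while without the 3 libraries 2 rose and 5 fell and under equal-sum scaling 8 rose and none fell. Of 21 ER chaperone genes 2 rose and 2 fell, or 5 and 0 under equal-sum scaling. Hsp90b1, the ER form of HSP90, rose by 0.33 ± 0.06 (adjusted p = 0.000465), and the decreases of Dnajb9 and Xbp1 lost their calls without the 3 libraries.

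Metabolic and matrix genes gave small counts of calls from short lists. In none of the lists of this paragraph was the called share below the 8.05% of all genes. Of 29 genes of glucose and glycogen metabolism Slc2a1 and Ppp1r3g, a glycogen-targeting subunit gene, fell and Pdk1 rose, and without the 3 libraries 2 fell and none rose. Ppp1r3g was at -0.59 ± 0.14 (adjusted p = 0.00939). Xdh, which encodes xanthine dehydrogenase, was the 1 of 9 purine breakdown genes called, at -0.76 ± 0.20, with an adjusted p of 0.074 without the 3 libraries. Of 20 extracellular matrix genes Col4a1, Vcan and Adamts1 rose and Timp3 fell, and 2 rose and 1 fell without the 3 libraries. Vcan, which encodes versican, rose by 0.51 ± 0.12 and Col4a1, a basement membrane collagen gene, by 0.64 ± 0.14. Of 4 Id genes Id4 fell by 0.40 ± 0.09, and none rose. Among 12 oligodendrocyte markers Opalin and Ugt8a rose, and none was called without the 3 libraries.

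Females and males had fitted changes of the same sign in 454 of the 455 increases and all 462 decreases, a description only, since the calls were made on the change averaged over both sexes. With the spread shared between the sexes 1969 genes (17.3%) were called in females and 112 (0.983%) in males, and without the 3 female libraries 94 were called in females. The test of the difference itself called 1 gene (0.00878% of all; 2157 had an unadjusted p under 0.05). This was Net1, which encodes a guanine nucleotide exchange factor, at -1.06 ± 0.11 in females and -0.09 ± 0.11 in males (male minus female 0.98, adjusted p = 0.013). Without the 3 libraries, with the ribosomal RNA share as a covariate or under equal-sum scaling limma called no gene (484, 483 and 2322 had an unadjusted p under 0.05). Nr4a3 had the values -0.46 ± 0.37 in females and -2.07 ± 0.37 in males, with an adjusted p of 0.18 for the difference.

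ZT18 lies midway between the times compared. The median called gene had covered 47.6% of its rise or 48.4% of its fall by then. A contrast of ZT18 with the midpoint of ZT14 and ZT22 called 81 genes (0.711%), 54 above and 27 below, and 13 of the 455 increases and 4 of the 462 decreases were among them. Cirbp had already fallen at ZT18, with means of 8.95, 8.19 and 8.30 at ZT14, ZT18 and ZT22 (-0.43 ± 0.08 against the midpoint, adjusted p = 0.0045). Hsph1 was highest at ZT18, with means of 12.94, 13.43 and 13.30 (0.31 ± 0.06 above the midpoint, adjusted p = 0.0016). Hnrnpdl, an hnRNP gene, lay lower at ZT18 than at either end, with 11.13, 10.93 and 11.37 (-0.32 ± 0.05, adjusted p = 0.00051), and N6amt1, a methyltransferase gene, did the same (-0.54 ± 0.09, adjusted p = 0.00051). Per2 had means of 10.62, 10.41 and 9.34 at the same times (0.43 ± 0.10 above the midpoint, adjusted p = 0.025).

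Placed on the whole day, ZT14 or ZT22 was an end of the range for many of the called genes, while clock genes differed among themselves. Of the 455 increases 346 had their lowest mean of the 6 times at ZT14 and 275 their highest at ZT22, and of the 462 decreases 367 were highest at ZT14 and 236 lowest at ZT22. Choosing genes by these 2 times favours such ends. Of the core clock and clock output genes that fell, Per1, Per2, Per3, Nr1d2, Cry2, Cipc and Tef had their highest mean at ZT14. Hlf had its highest at ZT18. Ciart, Bhlhe40, Bhlhe41, Dbp and Nr1d1 had theirs at ZT10, before lights off, as did Ano2. Arntl had its lowest mean at ZT10 (9.56) and its highest at ZT2 (10.83). Ano2 stood at 10.26 at ZT10 and 10.24 at ZT14 and fell through 9.15 at ZT18 to 8.51 at ZT22, its lowest mean.

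**Figure D5:**
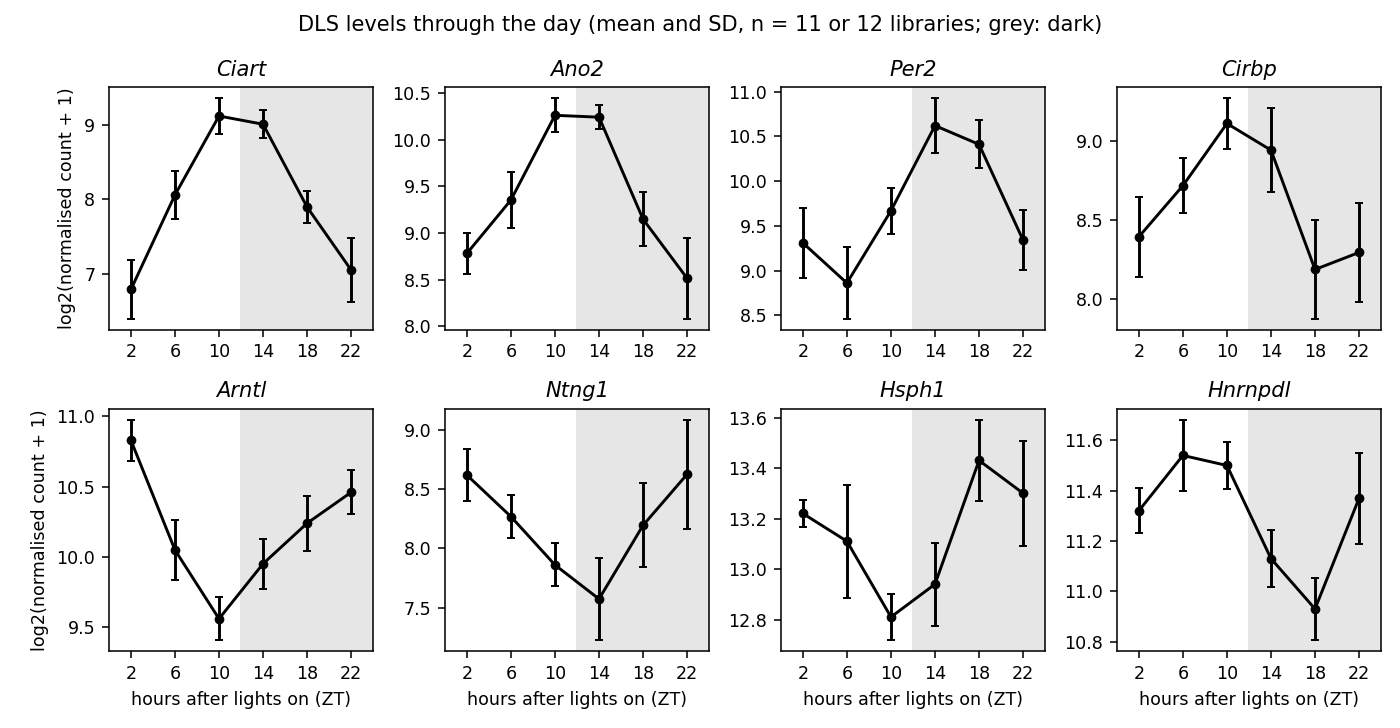
Mean level (y axis, log2 of the normalised count plus 1; bars are SD over 11 or 12 libraries) of 8 genes at 6 times of day (x axis, hours after lights on; grey is the dark phase) in DLS. Ciart and Ano2 are high at ZT10 and ZT14, Cirbp is lowest and Hsph1 highest at ZT18, Hnrnpdl dips at ZT18, and Ntng1 is lowest at ZT14.

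The same contrast was set beside that of the other striatal punches, nucleus accumbens (NAc, 13 libraries at ZT14 and 14 at ZT22) and dorsomedial striatum (DMS, 11 and 12), which were normalised separately and share 20 and 17 animals with DLS. The difference between DLS and NAc was called for 2 of 11289 genes (0.0177%; 653 at an unadjusted p under 0.05), and these were the neighbours Ano2 and Kcna5. Ano2 changed by -1.73 ± 0.11 in DLS and -0.62 ± 0.14 in NAc, a difference of -1.10 (adjusted p = 0.00136) that was -0.94 without the 3 libraries (adjusted p = 0.0218). Kcna5 changed by -1.14 ± 0.09 and -0.35 ± 0.12, a difference of -0.79 (adjusted p = 0.0447), which was not called without the 3 libraries or with the ribosomal RNA share in the fit. Against DMS no gene of 11365 was called (0%; 922 at an unadjusted p under 0.05), and without the 3 libraries Prdx6 and D6Wsu163e were, both at an adjusted p of 0.0499. In DMS Ano2 changed by -1.19 ± 0.13 and Kcna5 by -0.55 ± 0.09. The NAc values hold an adjustment that the labels do not record, and its part in the 2 differences was not tested.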

How the data were processed

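Bulk RNA of 217 striatal punches was measured, and 24 DLS libraries were used here (NAc and DMS libraries only for the region differences). The submitters' processing notes name FastQC and Trimmomatic, HISAT2 2.1.0 as aligner (Ensembl GRCm38) and HTSeq 0.10.0 as counter; they also name a human build, which the mouse identifiers contradict. Whether counting used the strand is not given in the sources used here, so values of overlapping, antisense and near-identical genes are uncertain. The authors used DESeq2 to normalise the counts of each region and deposited log2 values; in DLS 100% of values were whole reads of a library's own step (tolerance 0.01).

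Libraries were grouped by the labels' time and sex, and each is a separate animal, so p-values measure the spread between animals. ZT22 minus ZT14 was fitted with a sex term and a variance trend in limma 3.58.1 (R 4.3.3), with Benjamini-Hochberg adjustment over all genes and no filter. Sex differences, ZT18 against the midpoint and region differences (animal as a block, estimated correlations 0.00797 with NAc and 0.232 with DMS) were contrasts of the same kind. The procedure was tested on simulated data with the same spread setting for every gene, no sex effect and no libraries that stood apart. That test therefore does not cover the effect of the 3 libraries of low ribosomal RNA share. Named genes were the 10 largest called increases and decreases with a usable symbol and 1 sign in both sexes, all clock and cold-inducible genes, up to 4 members of smallest p per other list, and the leading genes of the other contrasts; 1 such gene is not reported here. The comparison, its members and the gene lists were chosen with earlier results of these data known. Of 11394 genes 11371 matched GENCODE M21. The permutation test over all 24 libraries drew 100000 resamples, and the other permutation tests were exact. Tables were handled with pandas 2.3.3, numpy 2.4.6 and scipy 1.17.1, and plots drawn with matplotlib 3.10.9. Alternatives covered scaling, pseudocount, a low-value filter, voom, the variance trend, the ribosomal RNA share, animal numbers and left-out libraries. Reads carry no molecular identifiers, so no counting interval is given.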

Additional observations from a re-analysis of the deposited data

Results flagged for a closer look

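Net1 changed by different amounts in females and males (male minus female 0.98, limma adjusted p = 0.013). The fall of Ano2 and of Kcna5 differed between DLS and NAc by -1.10 (adjusted p = 0.00136) and -0.79 (adjusted p = 0.0447).

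Single libraries lay far from the other 5 of their sex and time in 5 of 84 groups examined, over the ribosomal RNA share and the 20 largest changes; chance gives about 1 in 20. Nr4a3 was at 9.02 in male number 4 at ZT22, against 7.32 to 7.89 in the others. Zbtb16 was at 8.52 in female number 50 at ZT22, against 7.10 to 7.59, and in the same library Ntng1 was at 7.90, against 8.73 to 9.18. In female number 43 at ZT14 Bhlhe40 was at 10.18, against 10.56 to 10.65, and Creb5 at 4.46, against 5.93 to 6.77. Each of these genes stayed called when any 1 library was left out, with differences of -1.40 to -1.17 for Nr4a3, -1.30 to -1.16 for Zbtb16, 0.99 to 1.13 for Ntng1, -1.24 to -1.16 for Bhlhe40 and 0.86 to 1.11 for Creb5.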

How the results depend on the processing

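The count of 917 called genes stayed within 1.5 times under the other scalings, pseudocount, filter, voom, no variance trend, all 70 libraries and a term for animal numbers (866 to 1326), but the split did not: an equal sum over all listed genes gave 1083 higher and 55 lower. The count fell to 595 with the ribosomal RNA share as a covariate (235 higher, 360 lower) and to 559 without the 3 libraries. It was 144 and 341 in animals numbered up to 29 and from 31 alone, where fewer samples entered. All 3 libraries were among the 6 ZT22 libraries up to 29, and none was from 31, so the 2 ranges differ in this as well. The median of the cytosolic ribosomal protein genes was -0.343 up to 29 and 0.003 from 31. Leaving out 1 library gave 729 (without female ZT22 number 4) to 1041 (without female ZT22 number 50). Females fitted alone gave 349 genes in place of 1969, and 94 without the 3 libraries; males alone gave 238 in place of 112; the cause was not tested. The sex difference gave 0 genes under equal-sum scaling, with the ribosomal RNA share and without the 3 libraries, and 2 with a term for animal numbers (Net1 and Sgk1). ZT18 against the midpoint gave 162 genes with all 70 libraries and 176 with the ribosomal RNA share. Fits of all 70 libraries, and the ZT6 means, include male number 13 at ZT6. In that library 81.5% of normalised counts lay in 3 genes, and the mitochondrial ribosomal RNA share was 13.2%. The NAc difference gave 1 gene (Ano2) with that share and without the 3 libraries, and the DMS difference 2 without them. The ribosomal RNA share itself fell by 9.59 points in females. Of 101 named called genes 67 were called without the 3 libraries, 74 with the share as covariate and 100 with voom. Directions reversed for Ndufs1 under equal-sum scaling (0.029) and in animals from 31 for Xbp1 (0.0024).

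The replicate block on animal number, which males and females share only as a number, gave 891 genes (estimated correlation 0.0206), 1 for the sex difference, and changed the call of 1 of the 101 named genes. Residuals of same-numbered libraries correlated at -0.406 to 0.239 over 7 pairs, so the number does not pair the animals. The 3 libraries were singled out by their ribosomal RNA shares in these data, so leaving them out rests on the data for every result. For all results but the 917 genes it was also added after the results were seen. Creb5 and Evpl, with ZT14 levels down to 4.46 and 4.83, rest on few reads.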
